A study of Mus musculus with 8 samples.

Results

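The mouse mitochondrial genome is a small circle of DNA, called mtDNA, that carries 37 genes, and all 37 are described here as they were measured in newborn hearts. They were chosen as every row that the deposited expression table places on chromosome MT, which is 37 of its 54532 genes. By the biotype in the table, 13 encode proteins, 2 encode ribosomal RNAs (rRNAs) and 22 encode transfer RNAs (tRNAs). By strand, 28 lie on the plus strand and 9 on the minus strand, which are mt-Nd6 and 8 tRNA genes. No measured value entered the choice.

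At postnatal day 4, RNA of mouse hearts was sequenced in 2 groups of 4 libraries each. The cHET hearts had the genotype Mrps5 fl/+; Myh6-Cre, so that Cre from the promoter of Myh6, a cardiomyocyte myosin gene, removes 1 allele of Mrps5 in cardiomyocytes. The control hearts came from littermates with the genotype Mrps5 fl/+ and no Cre. The Mrps5 protein belongs to the small subunit of the ribosome of mitochondria, the machine that translates the mtDNA-encoded mRNAs. Both groups carry the floxed allele, no group carried Cre alone, and the other cell types of the heart should keep both Mrps5 alleles. The labels do not state the sex of the animals, the floxed exon or whether a library is 1 heart.

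In mammals mtDNA is transcribed from both strands into long precursor RNAs, and most mRNAs and rRNAs are released when the tRNAs that lie between them are cut out. The mRNAs encode subunits of respiratory complex I (Nd genes), complex III (Cytb), cytochrome oxidase (Co genes) and ATP synthase (Atp genes), which the beating heart depends on for ATP. Every other protein of mitochondrial transcription, RNA processing and translation, including Mrps5, is encoded in the nucleus. Before sequencing, RNA was enriched on poly-T beads, which bind poly(A) tails. Most mitochondrial mRNAs carry such tails, the rRNAs carry short ones, mature tRNAs carry none, and in human cells the ND6 mRNA is known to lack one.

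The sequences show 3 features of these genes. The first is that a stretch of mtDNA has a nearly identical copy in the nuclear genome. On chromosome 1 (24611535 to 24616197, GRCm38) 7 annotated pseudogenes lie side by side, and over 4136 aligned bases of their transcripts they differ from mtDNA at 2 bases. One difference is T3C in mt-Nd3, counted from the first base of the gene, with the mtDNA base first and that of the pseudogene Gm28438 after it. The other is A1066T in mt-Co1 against the pseudogene Gm29216. The first 60 bases of mt-Co3, which encodes a cytochrome oxidase subunit, are shown with those of its copy Gm28437, and the first 23 bases of mt-Nd3, a complex I subunit, with those of its copy. Capitals mark the start codon in the mt-Co3 pair and the differing base in the mt-Nd3 pair. All sequences are the annotated transcripts of GENCODE M21 on GRCm38, written 5′ to 3′ on the gene's own strand.
mt-Co3, chrMT:8607-8666, plus strand: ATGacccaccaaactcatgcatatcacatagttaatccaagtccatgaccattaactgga
Gm28437, chr1:24613912-24613971, minus strand: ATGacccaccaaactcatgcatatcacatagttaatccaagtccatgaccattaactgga
mt-Nd3, chrMT:9459-9481, plus strand: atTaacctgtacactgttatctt
Gm28438, chr1:24613097-24613119, minus strand: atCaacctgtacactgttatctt

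The second feature is the strand. Plus-strand protein genes held 5.88 to 16.1% G and 22.1 to 29.97% C, whereas mt-Nd6, the 1 protein gene on the minus strand, held 28.1% G and 5.97% C. The first 60 bases of mt-Nd6 and of its neighbour mt-Nd5 show this, with G in capitals.
mt-Nd6, chrMT:14011-14070, minus strand: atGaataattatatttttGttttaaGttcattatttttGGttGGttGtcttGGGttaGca
mt-Nd5, chrMT:11742-11801, plus strand: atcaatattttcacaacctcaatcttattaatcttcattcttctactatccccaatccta

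The third feature is how tightly the genes are packed. Of 36 pairs of neighbours, 21 touch or share bases and 9 share them, from 43 bases between mt-Atp8 and mt-Atp6 and 14 between mt-Nd5 and mt-Nd6 down to 1 between mt-Atp6 and mt-Co3. The largest gap, 32 bases, lies between mt-Tn and mt-Tc, where the origin of light-strand replication lies. The coding sequences of mt-Co3, mt-Nd4 and mt-Cytb end with a single T after the last whole codon, a stop codon that in mammals is completed by the poly(A) tail. The last 30 bases of mt-Co3, with the left-over base in capitals, stand beside those of mt-Nd2, whose stop codon is whole. The ends of mt-Nd5 and mt-Nd6 follow, with the bases that the 2 genes share, on opposite strands, in capitals.
mt-Co3, chrMT:9361-9390, plus strand: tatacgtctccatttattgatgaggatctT
mt-Nd2, chrMT:4922-4951, plus strand: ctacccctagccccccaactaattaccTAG
mt-Nd5, chrMT:13536-13565, plus strand: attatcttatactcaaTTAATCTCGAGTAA
mt-Nd6, chrMT:13552-13581, minus strand: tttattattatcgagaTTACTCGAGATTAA

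Values are FPKM, a read count scaled by gene length and by the depth of the library, and reads per gene were rebuilt from FPKM and gene length. The libraries held 15490622 to 19234777 rebuilt reads. Genes were tested with limma on log2(FPKM + 1) where their mean was at least 1 FPKM. Among 13029 genes tested, 3 were higher in cHET (0.0230%) and 0 lower (0%) at an adjusted p under 0.05, and none of these 3 was mtDNA-encoded. An unadjusted p under 0.05 was found for 655 genes higher (5.03%) and 511 lower (3.92%) in cHET, by the same limma fit. For 357 genes (2.74%) every cHET library was above every control library, and for 260 genes (2.00%) every cHET library was below. Mrps5 had 6.84, 7.12, 6.995 and 7.68 FPKM in cHET and 11.6, 6.27, 10.1 and 5.15 FPKM in control. The control libraries lay on either side of all cHET libraries, and the difference did not pass (exact two-sided permutation test, p = 0.486, smallest possible p = 0.0286; log2 fold change -0.13 ± 0.21 SE). The targeted gene therefore gave no check of the genotype labels in this bulk RNA, in which fewer cells of a type and less RNA per cell cannot be told apart. With control 1 left out its log2 fold change was 0.041.

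Cardiomyocyte markers (6 of 6 found, led by Actc1 and Myh6) were high in every library. They summed to 10193 to 13283 FPKM in cHET and 10222 to 11694 FPKM in control. Of the 6, 4 had log2 fold changes below 0, while Actc1 (0.34) and Ryr2 (0.24) were above. In Pln (-0.48) every cHET library was below every control library, as in 2.00% of all genes tested. Atrial markers (4 of 4 found, led by Myl7 and Nppa) summed to 240.5 to 5277 FPKM in cHET and 1459 to 5117 FPKM in control, and cHET 3 had the lowest sum. Brown fat markers (5 of 5, led by Cidea and Ucp1) summed to 29.0 to 42.6 FPKM in cHET and 24.6 to 61.8 FPKM in control, with control 1 and control 2 highest. Red cell markers (4 of 4, led by Hbb-bs and Hba-a1) summed to 1584 to 2527 FPKM in cHET and 1021 to 8387 FPKM in control, with control 2 highest. Leukocyte markers (5 of 5, led by Lyz2 and C1qa) summed to 58.4 to 95.1 FPKM in cHET and 76.6 to 170.04 FPKM in control, again highest in control 2. Epicardial markers (3 of 3, led by Msln and Upk3b) summed to 12.9 to 27.7 FPKM in cHET and 29.6 to 61.6 FPKM in control, with no overlap. Of the 3, only Msln was without overlap by itself, with every cHET library below, as in 2.00% of all genes tested. Upk3b had 3.42 to 9.96 FPKM in cHET and 9.66 to 26.1 FPKM in control. Wt1 had 2.38 to 3.54 FPKM in cHET and 2.44 to 3.16 FPKM in control. Endothelial markers (4 of 4, led by Cdh5 and Pecam1) summed to 114 to 131 FPKM in cHET and 84.1 to 146 FPKM in control, and fibroblast markers (4 of 4, led by Col1a1 and Postn) to 233 to 389 FPKM in cHET and 241 to 394 FPKM in control. No marker of any list was at 0 in all libraries.

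The 13 protein genes spanned more than 3 orders of magnitude in level per length. The highest was mt-Co1, the catalytic subunit of cytochrome oxidase, with a mean of 23119 FPKM over the 8 libraries. It was followed by mt-Nd1 (15626 FPKM), mt-Cytb (14632 FPKM), mt-Nd2 (6628 FPKM), mt-Nd4 (6200 FPKM), mt-Nd6 (6169 FPKM) and mt-Nd5 (4937 FPKM). Then came a drop to mt-Co2 (519 FPKM), mt-Atp6 (188 FPKM), mt-Co3 (174 FPKM), mt-Nd3 (162 FPKM) and mt-Nd4l (111 FPKM), and mt-Atp8 was lowest at 12.02 FPKM. Of the 12 neighbouring pairs in this order, 3 had ranges over the libraries that did not overlap, namely mt-Cytb over mt-Nd2, mt-Nd5 over mt-Co2 and mt-Nd4l over mt-Atp8. All other neighbours overlapped, and mt-Nd1 was above mt-Cytb in 4 of 8 libraries.

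**Figure D1:**
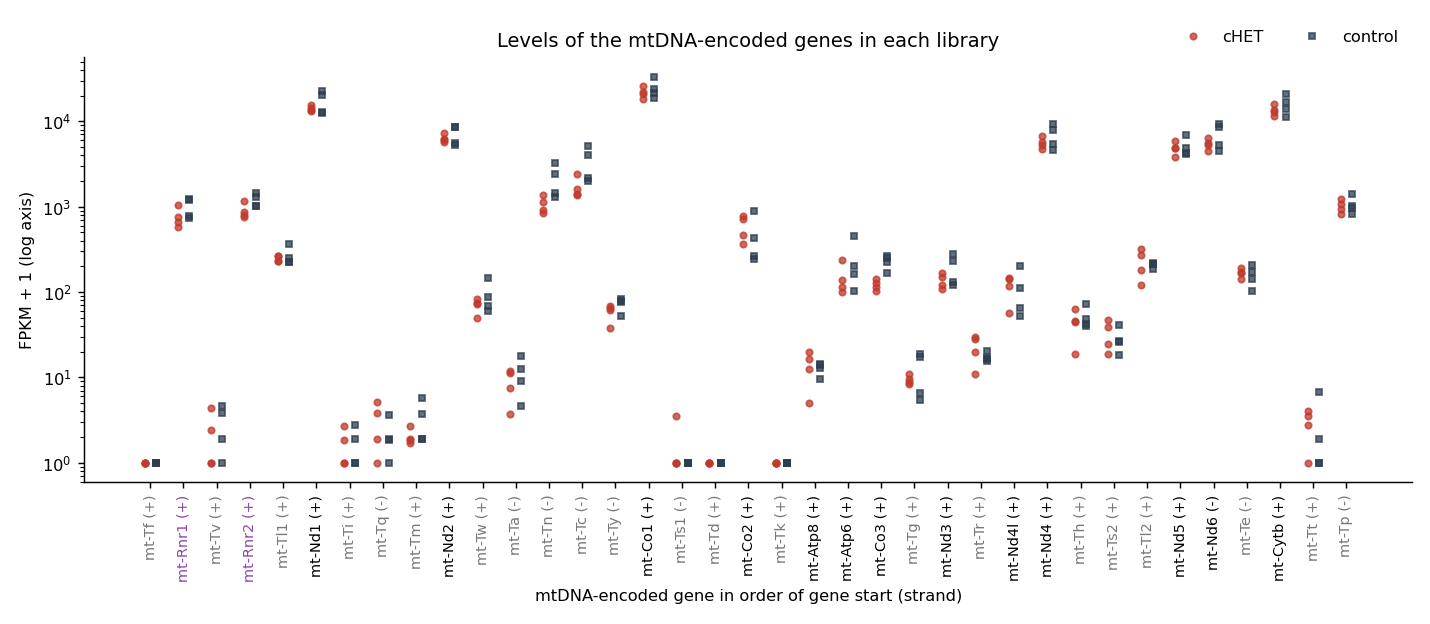
Each point is 1 library of the cHET group (circles, left) or the control group (squares, right), with FPKM + 1 on a log axis and the 37 mtDNA-encoded genes in order of gene start. Labels of protein genes are black, of rRNA genes purple and of tRNA genes grey, and mt-Tf, mt-Td and mt-Tk sit at 0 FPKM in all 8 libraries.

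mt-Co2, mt-Atp6, mt-Co3, mt-Nd3 and mt-Nd4l make up the lower group of protein genes, above mt-Atp8. They are the 5 with an annotated nuclear copy that is both almost complete and almost exact. Long but less exact copies are annotated for others. Gm13340 aligned with mt-Co1 over 1545 bases at 97.6% identity. Gm11408 aligned with mt-Nd6 over 519 bases at 93.6%, and Gm11410 with mt-Cytb over 1142 bases at 92.9%. Of all windows of 100 bases along a gene, the share that occurs letter for letter in an annotated nuclear transcript was 99.5% for mt-Co2, 99.5% for mt-Atp6, 99.9% for mt-Co3, 97.6% for mt-Nd3 and 98.5% for mt-Nd4l. It was 60.8% for mt-Nd4, 30.8% for mt-Co1, 3.19% for mt-Nd2 and 0% for mt-Nd1, mt-Nd5, mt-Nd6, mt-Cytb, mt-Atp8 and both rRNAs. These shares count annotated transcripts only. mt-Atp8 lies between mt-Co2 and mt-Atp6, whose copies lie on chromosome 1 at 24614885 to 24615565 and 24613974 to 24614651. The last 43 bases of mt-Atp8, which it shares with mt-Atp6, aligned with Gm10925, the copy of mt-Atp6, at 100% identity. These bases are shorter than any window used, so its share of 0% does not count them. The stretch between the copies of mt-Co2 and mt-Atp6 is as long as the mtDNA between the aligned parts of these genes. This stretch was not searched, so whether it holds the rest of mt-Atp8 is not known here. The 5 genes averaged 111 to 519 FPKM, against 4937 to 23119 FPKM for the 7 less copied genes (at most 60.8% of windows), mt-Atp8 aside. With windows of 150 bases the 5 genes were at 97.0 to 99.8% and mt-Nd4 at 59.2%. With windows of 50 bases the 5 genes were at 97.99 to 100% and mt-Co1 at 51.1%. The 2 quantities are given side by side as a description across genes. How reads that match several places were counted is not given in the sources used here, and the part of these copies in the levels was not tested.

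**Figure D2:**
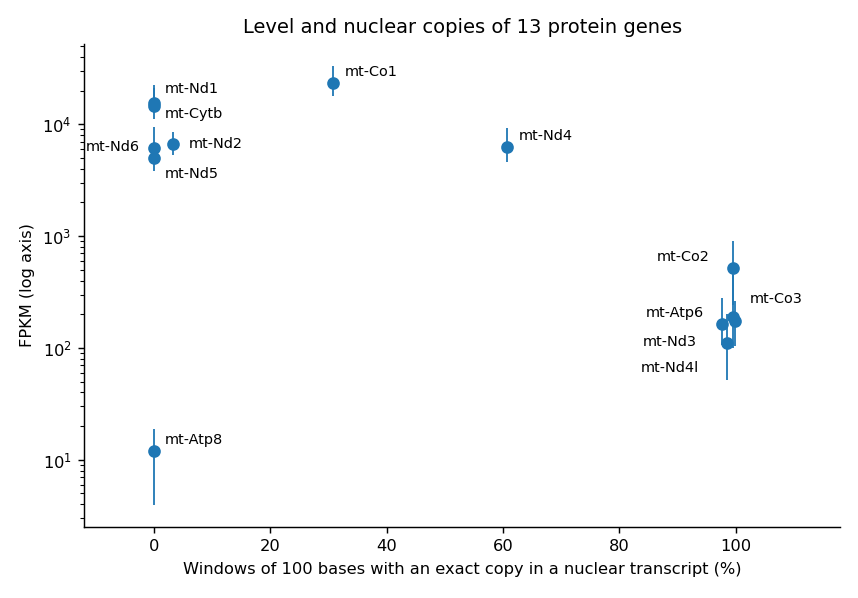
Mean FPKM over 8 libraries (log axis, lines from the lowest to the highest library) against the percentage of 100-base windows with an exact copy in an annotated nuclear transcript, for the 13 protein genes. The 5 genes above 90% lie between 111 and 519 FPKM. mt-Atp8 lies at 12.02 FPKM with 0% of its windows in an annotated transcript. Its last 43 bases match Gm10925 but are shorter than a window, and nuclear stretches outside annotated transcripts were not searched.

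mt-Atp8 encodes a small subunit of ATP synthase, and its whole coding sequence is 204 bases long, of which the last 43 also belong to mt-Atp6. It had 18.9, 11.6, 15.3 and 3.95 FPKM in cHET and 13.3, 8.50, 11.8 and 12.9 FPKM in control. These values rest on 14 to 66 reads per library, the fewest of any protein gene, and the groups overlapped (log2 fold change -0.064 ± 0.38 SE). Both the highest and the lowest library were cHET. How reads were counted that touch 2 genes at once is also not given in the sources used here.

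The pseudogenes of chromosome 1 carried reads of their own. Gm28661, the copy of mt-Co2, had 228 to 338 FPKM in cHET and 242 to 554 FPKM in control, and Gm10925, the copy of mt-Atp6, had 130 to 158 FPKM in cHET and 113 to 218 FPKM in control. The 7 pseudogenes together took 0.0460 to 0.0578% of all reads in cHET and 0.0393 to 0.0785% in control. For mt-Nd3 the ratio of gene to copy was 4.65 to 4.79 in all 4 control libraries, and in cHET it was 4.70, 4.90, 3.52 and 4.67. For mt-Nd4, a complex I subunit whose copy Gm28439 covers part of the gene, the ratio was 102 to 134 in cHET and 130 to 133 in control. The control libraries were thus close to a constant proportion for these 2 genes, although the levels of mt-Nd3 in control ran from 119 to 279 FPKM. Other pairs varied more. In control the ratio was 0.900 to 2.07 for mt-Atp6, 1.64 to 4.00 for mt-Nd4l (copy Gm10222) and 147 to 290 for mt-Co1 (copy Gm29216). In cHET these ratios were 0.624 to 1.52, 1.78 to 5.50 and 65.8 to 234, in that order. None of the 4 pseudogenes with at least 500 aligned bases at 98% identity (Gm10925, Gm28661, Gm28437 and Gm28439) passed the limma test, with log2 fold changes of -0.31 to -0.036.

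Between cHET and control hearts no mtDNA-encoded gene passed the test over all genes, and most were slightly lower in cHET. Of the 32 members tested, 24 had a log2 fold change below 0 and 8 above, with a median of -0.21, against 47.9% below 0 and a median of 0.0086 over all 13029 genes tested. Without control 1 and control 2 the direction turned, with 10 of 30 tested members below 0 and 20 above (median 0.10). These were the libraries with the highest mtDNA-encoded share of reads, and the highest cHET library was kept. Leaving them out therefore raises most of these fold changes by construction, and the turn shows only that the direction rests on them. Under TPM, where the median of all genes was 0.10, 20 of the 32 were below 0. Under quantile normalization 17 were below 0 and 12 above, and under library weights 19 were below 0 (median -0.043). Of the 32, 3 had an unadjusted limma p under 0.05 as lower in cHET (mt-Co3, mt-Tn and mt-Tc) and 0 as higher. Over all genes tested these shares were 3.92% and 5.03%. In 1 of the 32, mt-Co3, every cHET library was below every control library, against 2.00% of all genes tested, so 1 such member is near the general share. The other 5 members, all tRNA genes, were under 1 FPKM on average. Since members share libraries and precursor RNAs, the 24 are not separate observations.

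**Figure D3:**
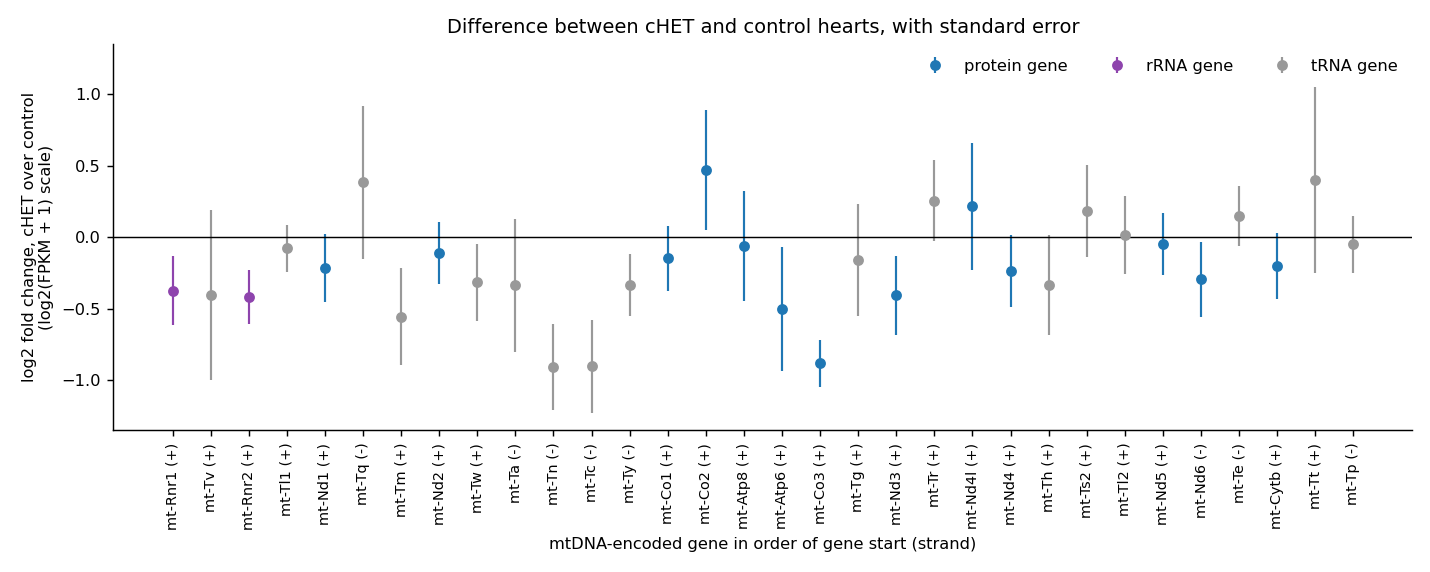
The log2 fold change of cHET over control on the log2(FPKM + 1) scale (points, lines show 1 standard error) for the 32 tested members in order of gene start. Of the 13 protein genes 11 lie below 0, mt-Co3, mt-Tn and mt-Tc lie lowest, and mt-Co2 is highest at 0.47.

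The 7 less copied protein genes, mt-Atp8 aside, had log2 fold changes from -0.30 to -0.049, with standard errors of 0.22 to 0.26 (limma, adjusted p from 0.725 to 0.948). The sign of mt-Nd5 turned under TPM, quantile normalization and scaling without mtDNA-encoded genes, that of mt-Nd2 under quantile normalization and library weights, and that of mt-Nd1 under library weights. Under quantile normalization mt-Nd1, mt-Co1 and mt-Cytb were at 0. This setting gives every library the same value at each rank. mt-Co1 was the highest of them in every library, and mt-Nd1 and mt-Cytb shared the next ranks alike in both groups. Their 0 was thus fixed by rank, whatever their levels. Without control 1 alone, mt-Co1, mt-Nd2 and mt-Nd5 were above 0 (0.010, 0.00093 and 0.12), and without cHET 4 mt-Nd5 was (0.060). mt-Nd1, a core membrane subunit of complex I, had 15542, 13619, 14345 and 13294 FPKM in cHET and 20440, 22390, 12912 and 12468 FPKM in control. mt-Co1 had 25990, 22041, 21070 and 18024 FPKM in cHET and 33178, 24032, 21709 and 18910 FPKM in control. In both genes control 1 or control 2 was highest, while control 3 and control 4 lay among or near the cHET libraries. mt-Cytb, the mtDNA-encoded subunit of complex III, showed the same picture, with 15719, 13662, 12931 and 11441 FPKM in cHET and 21128, 17025, 13977 and 11168 FPKM in control. The highest library was control 1 or control 2 for 11 of 13 protein genes, for both rRNAs and for 12 of the 19 tRNA genes with any read. Without these 2 libraries, 11 of the 13 protein genes had log2 fold changes above 0 (median 0.11) in place of 2, and mt-Co3 and mt-Atp8 were the exceptions. Since these libraries mostly held the highest values, a rise follows from leaving them out.

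The mtDNA-encoded genes took 10.99, 9.49, 8.86 and 7.86% of all reads in cHET (9.30 ± 1.31, SD, n = 4) and 13.4, 11.1, 9.16 and 8.17% in control (10.5 ± 2.32, n = 4). Control 1 was highest and cHET 4 lowest, and the groups overlapped. The difference of -1.17 percentage points was smaller than the spread within the control group, and it was 0.64 without control 1 and control 2, the 2 highest libraries. In these 2 libraries the summed brown fat markers, Ucp1 and Adipoq were also highest. Ucp1, the uncoupling protein of brown fat mitochondria, had 0.286, 6.56, 0 and 1.62 FPKM in cHET and 17.8, 16.7, 0.0387 and 0.149 FPKM in control. Adipoq, an adipocyte hormone, had at most 2.14 FPKM in cHET and 5.16 FPKM in control, again highest in control 1 and control 2. Cidea, a lipid droplet protein, had 28.5, 32.9, 29.0 and 30.8 FPKM in cHET and 36.4, 32.1, 24.5 and 28.1 FPKM in control, so that cHET 2 was above control 2. The part of other tissue in the mtDNA-encoded levels was not tested.

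**Figure D4:**
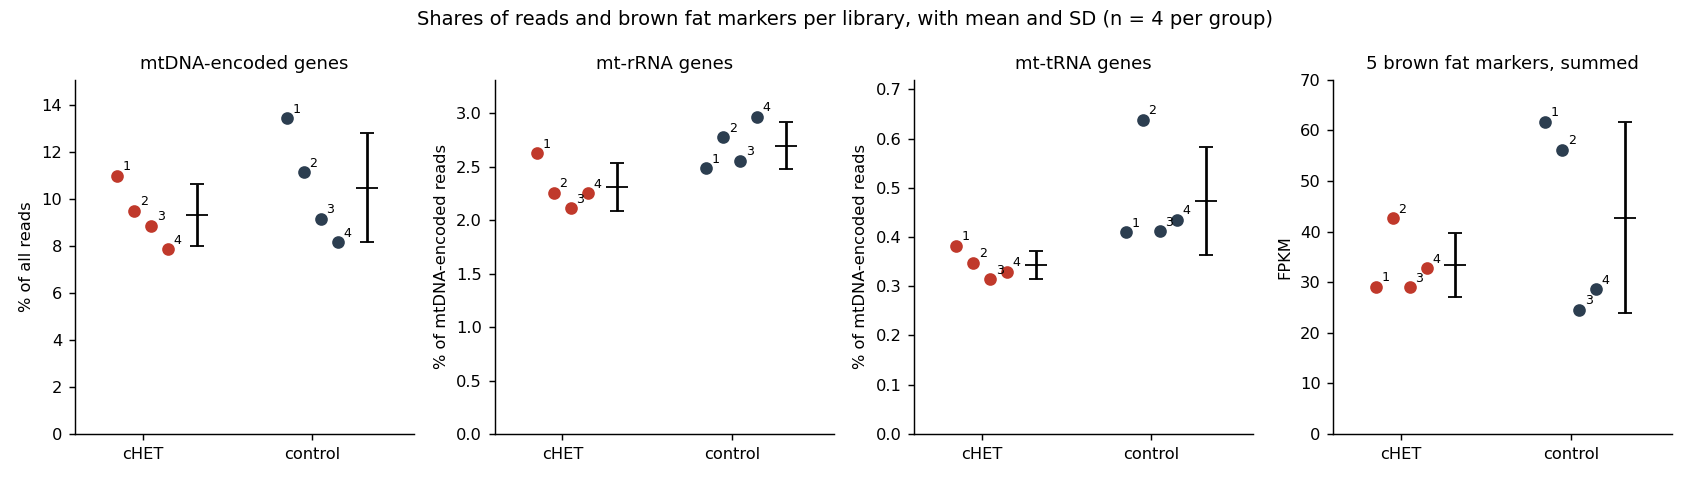
Per-library values (points, numbered by replicate), with mean and SD beside them (n = 4 per group): mtDNA-encoded genes as a percentage of all reads, rRNA and tRNA genes as percentages of mtDNA-encoded reads, and the sum of the 5 brown fat markers in FPKM. The tRNA share lies at 0.314 to 0.382% in cHET and 0.410 to 0.638% in control, and mt-Tc and mt-Tn hold 56.6 to 77.2% of tRNA reads. Control 1 and control 2 are highest in both the mtDNA-encoded share and the brown fat markers.

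The make-up of the mtDNA-encoded protein-gene reads was set out as the share of each gene. mt-Co1 took 36.7 to 38.4% of protein-gene reads in cHET and 33.4 to 38.4% in control. mt-Cytb took 17.0 to 17.5% in cHET and 16.8 to 18.3% in control. Control 2 stood apart, with the lowest share of mt-Co1 and mt-Nd5 and the highest of mt-Nd1 (19.3%) and mt-Nd6 (4.38%). mt-Co2 took 0.277 to 0.556% in cHET and 0.208 to 0.551% in control, and mt-Atp6 took 0.0775 to 0.155% in cHET and 0.0908 to 0.229% in control. The ratio of mt-Nd6 to mt-Nd5, which overlap end to end on opposite strands, was 1.09 to 1.19 in cHET and 1.22, 2.29, 1.08 and 1.06 in control. For each of the 13 protein genes, the groups overlapped in the share of protein-gene reads.

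mt-Co3, whose product is a core subunit of cytochrome oxidase, had 143, 114, 103 and 127 FPKM in cHET and 168, 251, 226 and 264 FPKM in control. Every cHET library was below every control library. The means were 122 ± 17.2 FPKM in cHET and 227 ± 42.6 FPKM in control (SD, n = 4). The change on the log2(FPKM + 1) scale was -0.88 ± 0.17 SE (limma, adjusted p = 0.275, lower in 4 of 4 cHET libraries). Over the alternatives the fold change was -1.02 to -0.79 with adjusted p from 0.0462 to 0.778 (limma), and the lowest, from weighting libraries, was the 1 that passed. Control 4 was its highest library, unlike the 11 protein genes that were highest in control 1 or control 2.

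The copy of mt-Co3, Gm28437, had 113, 87.7, 82.7 and 85.1 FPKM in cHET and 127, 185, 77.5 and 73.2 FPKM in control. It was highest in control 1 and control 2, and the groups overlapped. The ratio of mt-Co3 to Gm28437 was 1.26, 1.30, 1.25 and 1.498 in cHET and 1.32, 1.36, 2.92 and 3.60 in control, so that control 3 and control 4 had about the same copy level as cHET but more reads on the gene. The sum of gene and copy was 256, 201, 186 and 213 FPKM in cHET and 294, 436, 304 and 337 FPKM in control, again without overlap. As a share of protein-gene reads, mt-Co3 was 0.0930 to 0.132% in cHET and 0.0975 to 0.271% in control, and on that scale the groups overlapped.

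mt-Co2, which carries the copper centre that takes electrons from cytochrome c, had the highest log2 fold change of any protein gene, 0.47 ± 0.42 SE. It had 784, 362, 707 and 459 FPKM in cHET and 432, 895, 266 and 244 FPKM in control. Control 2 was the highest of all libraries, and the groups overlapped. The ratio of mt-Co2 to its copy Gm28661 was 2.32, 1.43, 2.35 and 2.01 in cHET and 1.03, 1.62, 1.097 and 1.0004 in control, so that 1 control library lay within the cHET range. mt-Co2 and mt-Co3 thus lay on opposite sides of 0 although both are plus-strand oxidase genes from the same copied stretch.

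**Figure D5:**
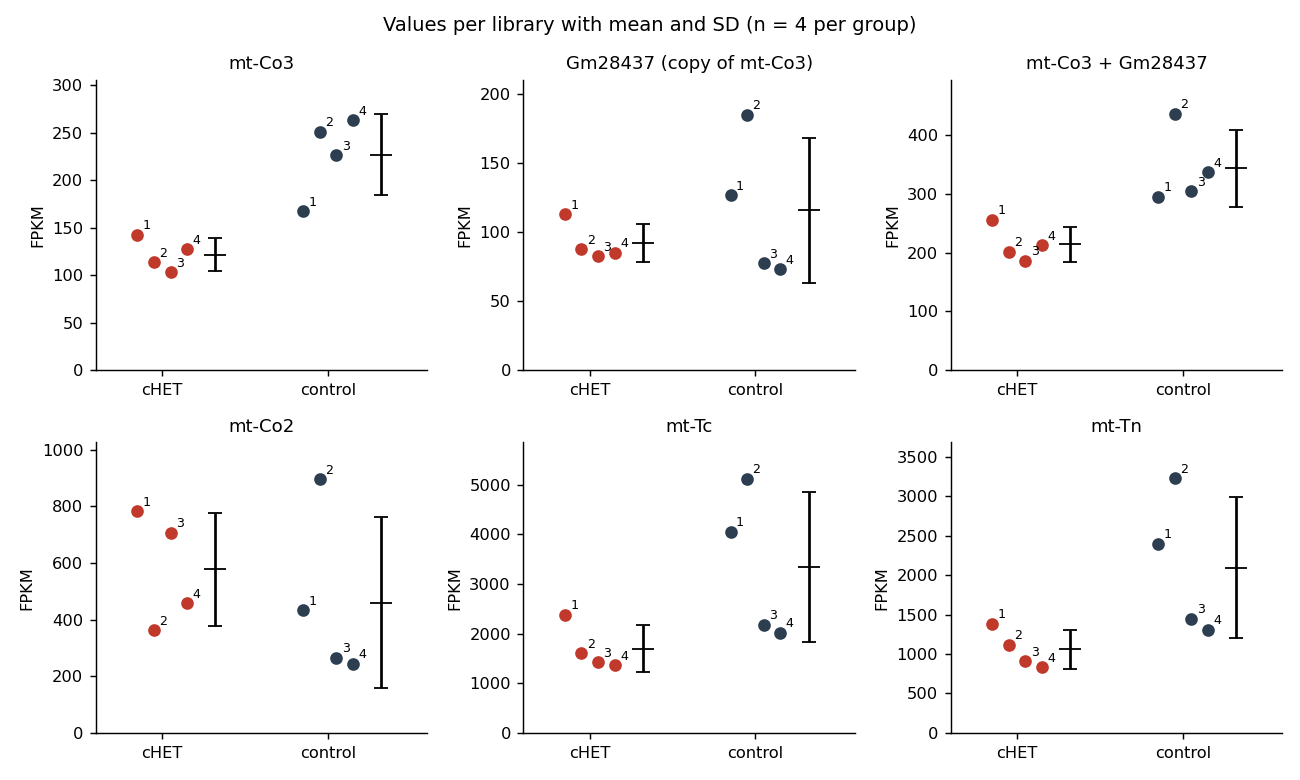
FPKM in each library (points, numbered by replicate) with mean and SD (n = 4 per group) for mt-Co3, its nuclear copy Gm28437, their sum, mt-Co2, mt-Tc and mt-Tn. mt-Co3 lies at 103 to 143 FPKM in cHET and 168 to 264 FPKM in control without overlap, while Gm28437 overlaps.

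Of the other protein genes from the copied stretch, mt-Atp6, the proton channel subunit of ATP synthase, had 238, 137, 98.9 and 113 FPKM in cHET and 452, 199, 162 and 102 FPKM in control (log2 fold change -0.50 ± 0.44 SE). mt-Nd3 had 164, 150, 107 and 121 FPKM in cHET and 227, 279, 131 and 119 FPKM in control (-0.41 ± 0.28 SE). mt-Nd4l, a small complex I subunit, had 116, 56.2, 145 and 141 FPKM in cHET and 202, 63.6, 51.9 and 110 FPKM in control (0.21 ± 0.44 SE). All 3 overlapped between groups. The 5 genes of the copied stretch had a larger spread between libraries, with a median SD of 0.70 on the log2(FPKM + 1) scale, than the 7 less copied protein genes (0.31).

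By complex, 6 of the 7 complex I genes had log2 fold changes below 0 (median -0.22), as did 2 of the 3 oxidase genes (median -0.15), both ATP synthase genes and mt-Cytb. By strand, 18 of the 24 tested plus-strand members were below 0 (median -0.18), and 6 of the 8 tested minus-strand members (median -0.32). mt-Nd6, a complex I subunit, had 6332, 5293, 5518 and 4518 FPKM in cHET and 8519, 9390, 5275 and 4508 FPKM in control (-0.30 ± 0.26 SE). Its level was close to that of the plus-strand complex I genes mt-Nd4 and mt-Nd2, and the library protocol in the labels names no step that keeps strand. Whether strand was kept is therefore not known here, and reads of a gene and of its antisense partner may be mixed.

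The rRNA genes lie next to the main promoters and had a lower level than the 7 less copied protein genes in these poly(A)-enriched libraries. mt-Rnr1, the RNA of the small mitochondrial ribosomal subunit, to which the Mrps5 protein belongs, had 1040, 747, 656 and 583 FPKM in cHET and 1239, 1196, 730 and 778 FPKM in control. mt-Rnr2, the RNA of the large subunit, had 1162, 856, 795 and 756 FPKM in cHET and 1433, 1300.1, 1014 and 1013 FPKM in control. In both genes control 1 was highest and cHET 1 lay within the control range. The log2 fold changes were -0.38 ± 0.24 SE and -0.42 ± 0.19 SE (limma, adjusted p = 0.659 and 0.563). The ratio of mt-Rnr2 to mt-Rnr1 was 1.12 to 1.30 in cHET and 1.09 to 1.39 in control, and the rRNAs made up 2.31 ± 0.220% of mtDNA-encoded reads in cHET and 2.70 ± 0.219% in control (SD, n = 4).

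The tRNA genes, 59 to 75 bases long, spanned the range from no read to more than the rRNAs. Highest were mt-Tc (2521 FPKM on average), mt-Tn (1578 FPKM) and mt-Tp (1031 FPKM), which all lie on the minus strand, followed by mt-Tl1 (257 FPKM), mt-Tl2 (215 FPKM) and mt-Te (162 FPKM). Their products read cysteine, asparagine, proline, leucine, leucine and glutamate codons, in that order. The 8 minus-strand tRNA genes held 83.5 to 87.8% of tRNA reads in cHET and 87.8 to 92.0% in control, and the groups overlapped slightly. The strand here is that of the gene, since whether counting kept the strand of the reads is not known. The genes of the 3 highest tRNAs and of the highest plus-strand tRNA are shown whole.
mt-Tc, chrMT:5192-5257, minus strand: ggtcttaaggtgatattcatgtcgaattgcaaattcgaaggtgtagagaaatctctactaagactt
mt-Tn, chrMT:5089-5159, minus strand: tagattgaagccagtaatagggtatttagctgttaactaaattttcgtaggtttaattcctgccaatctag
mt-Tp, chrMT:15356-15422, minus strand: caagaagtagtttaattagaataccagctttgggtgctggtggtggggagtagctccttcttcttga
mt-Tl1, chrMT:2676-2750, plus strand: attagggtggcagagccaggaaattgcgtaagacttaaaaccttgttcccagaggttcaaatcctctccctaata

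mt-Tc had 2386, 1608, 1424 and 1363 FPKM in cHET and 4057, 5128, 2184 and 2019 FPKM in control. mt-Tn had 1383, 1117, 911 and 834 FPKM in cHET and 2398, 3225, 1447 and 1308 FPKM in control. In each gene control 1 and control 2 were highest and cHET 1 overlapped the lower control libraries. The log2 fold changes were -0.91 ± 0.33 SE for mt-Tc and -0.91 ± 0.30 SE for mt-Tn (limma, adjusted p = 0.484 and 0.441), and both were below 0 in every alternative. The ratio of mt-Tc to mt-Tn stayed at 1.44 to 1.73 in cHET and 1.51 to 1.69 in control, although the level of mt-Tc differed between libraries by more than 3-fold.

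The other genes of the same cluster of 5 tRNA genes also had log2 fold changes below 0, of -0.34 ± 0.21 SE for mt-Ty, -0.34 ± 0.46 SE for mt-Ta and -0.32 ± 0.27 SE for mt-Tw, and whether these differ from the pair was not tested. The values of mt-Ta and mt-Tw were above 0 without control 1 and control 2 (0.27 and 0.078), and that of mt-Ta was also above 0 under library weights (0.30). mt-Ty (tyrosine), on the same strand as mt-Tc, had 67.2, 63.6, 60.4 and 37.0 FPKM in cHET and 82.6, 50.8, 74.7 and 78.4 FPKM in control. mt-Ta (alanine), on the same strand as mt-Tn, had 2.71 to 10.8 FPKM in cHET and 3.67 to 16.8 FPKM in control. mt-Tw (tryptophan), on the plus strand, had 48.1 to 81.6 FPKM in cHET and 59.6 to 144 FPKM in control. mt-Ta and mt-Tw, like the pair, were highest in control 1 and control 2, and mt-Ty was lowest among the control libraries in control 2. Together mt-Tc and mt-Tn made up 62.0, 58.2, 56.6 and 58.1% of tRNA reads in cHET and 77.1, 77.2, 66.7 and 65.7% in control, with no overlap. The pair was singled out after its values were seen. The tRNA genes as a whole took 0.382, 0.348, 0.314 and 0.330% of mtDNA-encoded reads in cHET and 0.410, 0.638, 0.411 and 0.436% in control, also with no overlap. The pair held most of these reads, so this is not a separate result and does not speak for the other tRNA genes.

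The other abundant tRNA genes had log2 fold changes nearer to 0 than the pair. mt-Tp had 1228, 933, 1065 and 809 FPKM in cHET and 1025, 1403, 955 and 828 FPKM in control (log2 fold change -0.052 ± 0.20 SE). mt-Te had 143 to 188 FPKM in cHET and 100.5 to 208 FPKM in control (0.15 ± 0.21 SE), and mt-Tl1 had 229 to 266 FPKM in cHET and 226 to 360 FPKM in control (-0.077 ± 0.16 SE). mt-Tl2 had 120 to 320 FPKM in cHET and 186 to 221 FPKM in control (0.013 ± 0.27 SE). Its highest and lowest libraries, cHET 1 and cHET 3, were both cHET. Of the 17 tRNA genes tested, 11 had log2 fold changes below 0 (median -0.16).

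Of the remaining tRNA genes, mt-Th (histidine), mt-Ts2 (serine), mt-Tr (arginine), mt-Tg (glycine), mt-Tm (methionine), mt-Tt (threonine), mt-Tq (glutamine) and mt-Tv (valine) averaged 46.0, 29.3, 18.7, 9.76, 1.66, 1.75, 1.52 and 1.51 FPKM, in the order named. mt-Tm, mt-Tt, mt-Tq and mt-Tv rested on at most 6 reads per library. Below the 1 FPKM needed for a test were mt-Ti (isoleucine), with at most 2 reads in a library, and mt-Ts1 (serine), with 3 reads in cHET 4 alone. mt-Tf (phenylalanine), mt-Td (aspartate) and mt-Tk (lysine) had no read in any library, which allows, at 3 reads per library, up to 2.15 to 2.97 FPKM. mt-Ts1, mt-Td and mt-Tk lie between mt-Co1 and mt-Atp6, genes with copies on chromosome 1. Stretches between the annotated pseudogenes there were not searched. mt-Tf is the first gene of the plus strand and is followed within 1 base by mt-Rnr1, which averaged 871 FPKM.

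The nuclear genes that transcribe mtDNA and process its RNA were measured beside their targets. Of a list of 41 such genes 40 were found in the table and 38 tested. Of these, 0 passed the limma test in either direction, 16 were below 0 and 22 above, and the median log2 fold change was 0.020, against 0.0086 over all genes. The RNA polymerase of mitochondria, Polrmt, had 8.54 to 9.49 FPKM in cHET and 8.33 to 9.62 FPKM in control (log2 fold change 0.020). Its partners Tfam, which packages mtDNA and starts transcription, and Tfb2m, which opens the promoter, had log2 fold changes of -0.015 and 0.027. The SEs of these 3 were 0.078, 0.078 and 0.098.

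Mterf2, a member of the family of mitochondrial termination factors that binds mtDNA, had the smallest p of the list. It had 4.31, 3.81, 3.94 and 3.75 FPKM in cHET and 7.61, 6.57, 5.17 and 5.05 FPKM in control. Every cHET library was below every control library, and control 1 and control 2 were again highest (log2 fold change -0.51 ± 0.12 SE, limma, adjusted p = 0.337). Mterf2 was the 1 gene without overlap among the 38 tested, against 2.00% of all genes tested, so 1 such gene is near the general share. It is named here because its p was the smallest. The others with the smallest p were Pnpt1, an RNA-degrading phosphorylase (0.17 ± 0.078 SE), Tbrg4, an RNA-binding FASTK family protein (0.22 ± 0.11 SE), Tfb1m, an rRNA methyltransferase (-0.25 ± 0.14 SE), Tefm, the elongation factor (-0.17 ± 0.10 SE), and Mrm1, which methylates the large rRNA (-0.15 ± 0.092 SE). Their groups overlapped.

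Of the genes that cut and stabilise the transcripts, Elac2, which cuts the 3′ end of tRNAs, had a log2 fold change of 0.11 ± 0.15 SE, and Trmt10c, a subunit of the enzyme that cuts the 5′ end, 0.092 ± 0.088 SE. Lrpprc, which protects mRNAs from decay, had 0.10 ± 0.12 SE, Mtpap, the poly(A) polymerase, 0.020 ± 0.082 SE, and Supv3l1, the helicase partner of Pnpt1, 0.097 ± 0.086 SE. Slirp, the partner of Lrpprc, was below the level needed for a test, with 0.782 to 1.08 FPKM in cHET and 0.354 to 1.68 FPKM in control. None of them passed the test, which does not show that their levels were alike.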

How the data were processed

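RNA of 8 mouse heart libraries was analysed from 1 deposited table of FPKM values, in which the authors had divided reads by gene length and by a library total. Per the submitters' processing notes, the authors used build mm9 and the tools featureCounts 1.5.0-p3, HISAT2 2.0.5 and DESeq2 1.20.0. The coordinates in the table, however, equal those of GENCODE M21 (GRCm38) for 53499 of 54409 shared genes (98.3%) and for all 37 members, and are given as the table has them. FPKM times gene length gave whole reads (within 0.05 reads), from which shares and depth were computed. The library total divided by was 0.968 to 1.04 times the sum of rebuilt reads. The limit given for a count of 0 (3 reads) covers counting error only.

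log2(FPKM + 1) was tested in R 4.3.3 with limma 3.58.1 (a linear model with a robust, trended eBayes step) in genes with a mean of at least 1 FPKM, cHET against control, two-sided, with Benjamini-Hochberg adjustment over all genes tested at 0.05. Fold changes on this scale understate those of low genes. The code was tested on simulated data. Mrps5 was compared by an exact permutation test. The series calls the 4 libraries of a group biological replicates, and p-values measure the spread between these libraries, whether or not each is 1 animal. No libraries of the same group were duplicates: chi-square per gene was 13.0 or more. Libraries of different groups were not compared in this way.

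Exact copies were searched, on both strands of annotated nuclear transcripts of GENCODE M21, with windows of 100 bases (50 and 150 as alternatives), and alignments were made with BLAST 2.17.0 at 90% identity or more. Nuclear stretches outside annotated transcripts were not searched here.

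The members and lists were chosen with earlier results of these data known. All members are named, Mrps5, the list's 6 genes of smallest p, 10 fixed genes of that list, the 2 highest markers of each list, and pseudogenes with at least 500 bases aligned at 98% identity. Gm28438, Gm10222, Gm29216, Gm13340, Gm11408, Gm11410, Adipoq, Wt1, Pln, Ryr2, mt-Tc and mt-Tn as a pair, and the ratios between genes were singled out after values were seen. Alternatives were pseudocounts of 0.1 and 5, other filters, 3 scalings, limma voom with TMM scaling on rebuilt reads, library weights, a replicate block and libraries left out.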

Additional observations from a re-analysis of the deposited data

Results flagged for a closer look

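Among 106 groups of 4 libraries (members, named nuclear genes and pseudogenes), 4 held 1 library far from the other 3, while chance alone picks out about 1 in 20 groups. mt-Tt had 5.77 FPKM in control 1, against 0 to 0.911 FPKM in the other control libraries, and these are at most 6 reads. Mtpap, the mitochondrial poly(A) polymerase, had 14.1 FPKM in control 2, against 12.05 to 12.07 FPKM. Tefm, the elongation factor, had 8.53 FPKM in cHET 3, against 9.78 to 9.90 FPKM in the other cHET libraries. Gm28437, the nuclear copy of mt-Co3, had 113 FPKM in cHET 1, against 82.7 to 87.7 FPKM.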

How the results depend on the processing

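How multi-mapped and overlapping reads were counted is not known here, so the levels of genes with nuclear copies and of mt-Atp8 are uncertain. The low tRNA genes are limited by depth. Of 602 member and alternative pairs, 547 kept the direction and the side of the threshold (counting mt-Nd1, mt-Co1 and mt-Cytb, which were at 0 under quantile normalization), 54 had the opposite sign and 1 passed in the alternative alone, mt-Co3 under library weights. Of the 32 tested members, 11 kept their sign in every alternative. The causes were not tested. TPM scaling moved the median of all genes to 0.10, and scaling without mtDNA-encoded genes to 0.061. Whether the same replicate numbers pair the libraries is not settled (correlations of deviations 0.29, 0.27, 0.052 and 0.057). cHET 1 and cHET 2 correlated best with the control library of their own number. In contrast, cHET 3 correlated best with control 4 (0.34), and cHET 4 with control 2 (0.10). With the replicate number as a block 1 gene was called higher, in place of 3, and none of the members. Under this block 7 of the 32 members, 3 of them protein genes, had an unadjusted limma p under 0.05 as lower, in place of 3 and 1. Genes called higher numbered 1 at a minimum of 5 FPKM and 8 under library weights, which also called 3 lower and 1 member. The median log2 fold change of the 13 protein genes was 0.11 without control 1 and control 2, and -0.35 to -0.053 with each library left out in turn. It was 0 under quantile normalization, where 6 of 13 were below 0 and 4 above, with mt-Nd1, mt-Co1 and mt-Cytb fixed at 0 by rank. The median of the nuclear list was 0.12 under TPM. Log2 fold changes with the opposite sign were, under library weights, 0.51 for mt-Tv, 0.068 for mt-Tl1, 0.0077 for mt-Nd1, 0.073 for mt-Nd2, 0.30 for mt-Ta, 0.30 for mt-Tg, -0.0037 for mt-Tl2, -0.030 for mt-Te, 0.011 for mt-Tp, -0.030 for Tfb2m, 0.089 for Gm10925, 0.075 for Gm28437 and 0.13 for Gm28439. Under TPM they were 0.022 for mt-Tl1, 0.014 for mt-Atp8, 0.050 for mt-Nd5, 0.048 for mt-Tp, 0.080 for Tfam and 0.063 for Gm28439. With scaling without mtDNA-encoded genes they were 0.015 for mt-Nd5, 0.013 for mt-Tp, 0.044 for Tfam and 0.028 for Gm28439. Under quantile normalization they were 0.030 for mt-Tl1, 0.065 for mt-Nd2, 0.17 for mt-Nd5 and 0.21 for mt-Tp. Without control 1 and control 2 they were 0.13 for mt-Tl1, 0.16 for mt-Nd1, 0.22 for mt-Nd2, 0.078 for mt-Tw, 0.27 for mt-Ta, 0.092 for mt-Co1, 0.11 for mt-Atp6, 0.64 for mt-Tg, 0.10 for mt-Nd3, 0.16 for mt-Nd4, -0.014 for mt-Tl2, 0.066 for mt-Nd5, 0.14 for mt-Nd6, -0.19 for mt-Te, 0.10 for mt-Cytb, 0.16 for mt-Tp, -0.012 for Lrpprc, -0.077 for Tfb2m, 0.28 for Gm10925, 0.19 for Gm28661, 0.28 for Gm28437 and 0.35 for Gm28439. With each library left out in turn, the log2 fold change ran from -0.15 to 0.077 for mt-Tl1, from -0.23 to 0.00093 for mt-Nd2, from -0.70 to 0.020 for mt-Ta, from -0.26 to 0.010 for mt-Co1, from -0.31 to 0.36 for mt-Atp8, from -0.47 to 0.13 for mt-Tg, from -0.061 to 0.58 for mt-Nd4l, from -0.56 to 0.025 for mt-Th, from -0.032 to 0.41 for mt-Ts2, from -0.19 to 0.28 for mt-Tl2 and from -0.14 to 0.12 for mt-Nd5. It ran from -0.047 to 0.30 for mt-Te, from -0.16 to 0.10 for mt-Tp, from -0.041 to 0.025 for Tfam, from -0.0098 to 0.052 for Polrmt, from -0.0076 to 0.073 for Mtpap, from -0.012 to 0.20 for Elac2, from -0.057 to 0.080 for Tfb2m, from -0.26 to 0.055 for Gm10925, from -0.42 to 0.027 for Gm28437, from -0.20 to 0.13 for Gm28439 and from -0.30 to 0.041 for Mrps5.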
